A study of Homo sapiens with 192 samples.

Results

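Collagen chain genes were read across 4 colorectal cancer (CRC) cell lines grown in 2D and in 3D. The members are the protein-coding genes whose symbol is COL, a number, A and a number, which gave 44 of the 58243 genes in the count tables. The lines are HT29 and LS513, described by the study as microsatellite stable (MSS), and HCT116 and LS174T, described as microsatellite unstable (MSI). Both growth conditions of every line have 3 libraries, which makes 8 groups and 24 libraries from untreated cultures, and nothing in the labels says whether the 3 libraries of a group came from separate cultures, so p-values measure the spread between libraries only. HCT116 was kept in McCoy medium and the other lines in DMEM, both with 5% serum, so a difference between HCT116 and another line cannot be told apart from a difference of medium. Each line is a model of the tumor it came from, grown without stromal cells. The study's methods describe low-attachment spheroid plates for its growth assays, and its RNA section says only that cells were grown in 3D.

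Collagens are matrix proteins built from chains that wind around each other, and each kind of collagen needs a fixed set of chains. Fibrillar collagens (types I, II, III, V, XI, XXIV and XXVII) form the fibers of stroma, cartilage and bone and are mostly made by mesenchymal cells. Type IV chains form the net of basement membranes, the sheet on which epithelium rests. Type XVII is a membrane protein of the hemidesmosome, the junction that ties epithelial cells to that sheet.

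The feature that joins the members was read from their coding sequences. Glycine, encoded by GGN, opens each triplet of residues, because no larger residue can lie inside the collagen helix. A run of at least 20 consecutive such triplets was present in 44 of the 44 collagen genes and in 0.342% of 19565 protein-coding genes, that is in 67 genes, of which 23 are not collagens. The longest run spanned 338 triplets in COL1A1 and 337 in COL5A3, 87 in COL6A1 and in COL6A2, 55 in COL17A1 and 30 in COL18A1. The following 30-codon stretches of GENCODE 29 transcripts, 5′ to 3′ with the glycine codons of the unbroken run in capitals, are shown for chains whose levels set the lines apart. The last of them starts in the final triplets of the longest run of COL4A2, where the register of glycine codons breaks off, as it does many times in type IV chains, and the glycine codons after the break are in lower case.
COL17A1: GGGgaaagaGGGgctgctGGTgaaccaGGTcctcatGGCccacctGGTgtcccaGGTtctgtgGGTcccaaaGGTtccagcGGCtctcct
COL18A1: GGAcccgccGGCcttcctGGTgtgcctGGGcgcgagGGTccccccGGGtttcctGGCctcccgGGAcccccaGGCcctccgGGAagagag
COL16A1: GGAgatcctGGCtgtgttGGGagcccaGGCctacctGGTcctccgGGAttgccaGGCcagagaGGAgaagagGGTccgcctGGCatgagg
COL6A2: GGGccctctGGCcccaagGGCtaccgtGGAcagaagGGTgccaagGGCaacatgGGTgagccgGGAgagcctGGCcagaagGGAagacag
COL4A2 at the end of its longest run: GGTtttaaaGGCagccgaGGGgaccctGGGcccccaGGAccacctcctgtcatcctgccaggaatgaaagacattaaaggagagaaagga

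The libraries held between 18723942 and 34277421 counts, so 3 counts, the floor used here, stood for 0.0875 to 0.160 CPM (counts scaled to the library size). The defining epithelial markers EPCAM, KRT8 and KRT18 were high in all 4 lines, whereas VIL1 averaged 0.223 CPM in HCT116 in 2D and 0.209 CPM in 3D. Of 10 epithelial markers, 10 had more than 3 counts in each library of HT29, LS513 and LS174T. In HCT116 this held for 9 in 2D and 9 in 3D, and 1 marker had 0 counts in its 3D libraries. Fibroblasts are the usual source of fibrillar collagen. Of 10 fibroblast markers, 1 had more than 3 counts in each library of HT29, 2 in LS513 and LS174T, and 3 in HCT116. PDPN had 0 counts in all libraries, and PDGFRA, THY1, DCN and LUM had at most 2 counts in any library. The highest count in a library was 4 for DPT, 21 for PDGFRB, 53 for FAP, 103 for TWIST1 and 544 for FBLN1. CD3E, a T cell marker, had 0 counts in all libraries. The 10 fibroblast markers together summed to 0.493 to 2.28 CPM in HT29, LS513 and LS174T libraries and, in HCT116, to 12.2 to 17.9 CPM in 2D and 18.3 to 20.8 CPM in 3D, where FBLN1 and TWIST1 made up most of the sum.

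The 4 lines differed in which chains they held. A chain was called detected in a group when each of its 3 libraries had more than 3 counts. By this rule 25 of the 44 chains were detected in at least 1 group, 19 of them in HCT116, 15 in HT29, 12 in LS174T and 9 in LS513. COL6A1 and COL17A1 alone were detected in all 8 groups. COL7A1, the chain of anchoring fibrils, and COL16A1, a fibril-associated chain, were detected in all 4 lines but not in every group. COL4A3, COL4A4, COL4A5, COL4A6, COL9A2, COL12A1 and COL26A1 were detected in HCT116 and in no other line by the rule, and COL6A3 in LS174T only, with at most 7 counts in a library. COL26A1 was detected in HCT116 in 2D only, at 4 to 7 counts. The 19 chains detected in no group were COL1A2, COL2A1, COL3A1, COL6A5, COL6A6, COL8A1, COL8A2, COL9A1, COL10A1, COL11A1, COL14A1, COL15A1, COL19A1, COL20A1, COL21A1, COL22A1, COL23A1, COL24A1 and COL25A1, and COL1A2 and COL23A1 had 0 counts in all 24 libraries. At a mean of at least 1 CPM, 18 chains were present in HCT116 and 7 in each of the other 3 lines.

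**Figure D1:**
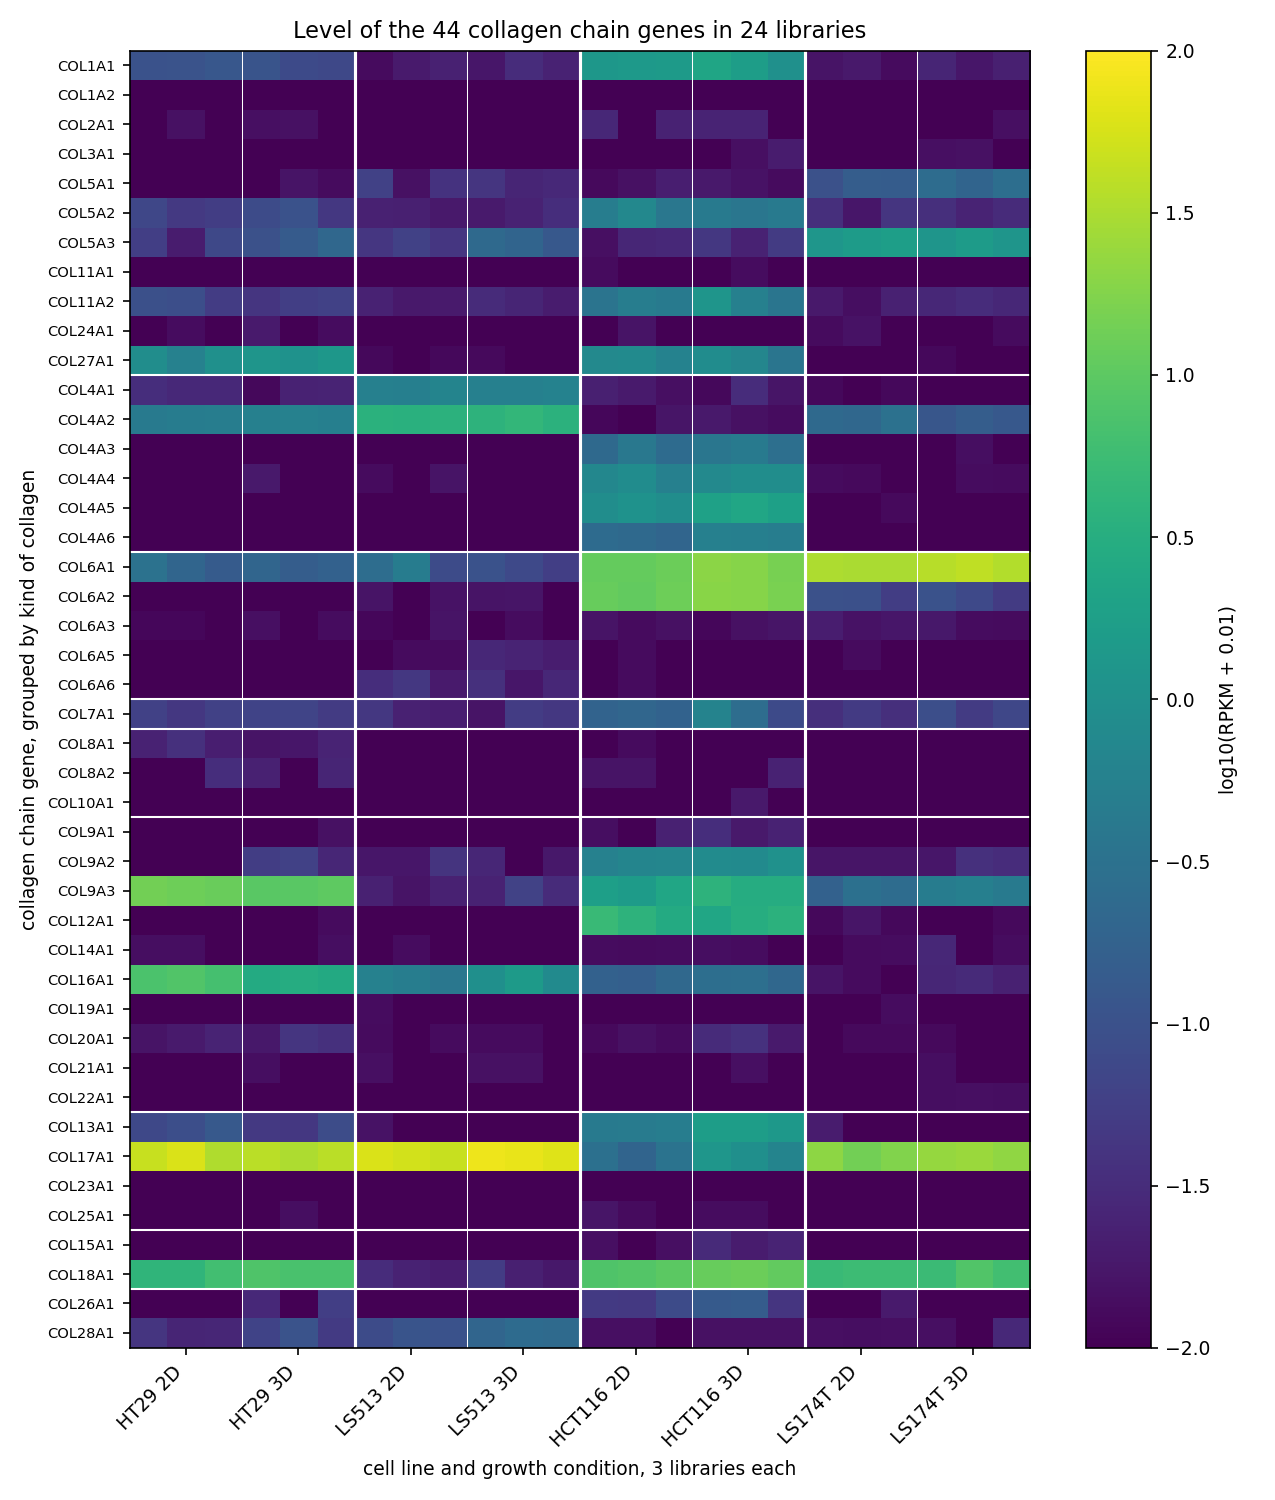
Level of each of the 44 collagen chain genes (rows, grouped by kind of collagen) in the 24 libraries (columns, 3 per group) as log10(RPKM + 0.01), with lighter colors for higher levels. COL17A1 is bright in HT29, LS513 and LS174T, the rows COL4A3 to COL4A6 light up in HCT116 only, and 19 rows are detected in no group.

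Compared per kilobase of exonic sequence (RPKM, which allows chains to be set against each other), the lines also differed in which chain led. COL17A1 held 62.3% ± 6.83 (SD, n = 3) of the summed collagen RPKM in HT29 in 2D and 62.1% ± 2.12 in 3D. In LS513 its share was 91.04% ± 0.919 in 2D and 91.9% ± 0.948 in 3D. LS174T was led by COL6A1, a chain of the beaded filaments of type VI collagen, with 55.7% ± 2.99 in 2D and 53.8% ± 0.925 in 3D. No chain led HCT116 in this way. Its highest chain was COL6A2 in 2D with 26.3% ± 1.52 and COL6A1 in 3D with 27.6% ± 1.24, followed by COL18A1 at 8.69 ± 1.10 RPKM in 2D and 11.7 ± 0.779 RPKM in 3D. The summed level was alike in scale: 74.0 ± 13.1 RPKM in HT29 in 2D and 58.9 ± 4.27 in 3D, 58.1 ± 7.14 and 77.7 ± 8.38 in LS513, 45.2 ± 1.96 and 65.5 ± 6.85 in HCT116, and 56.9 ± 3.83 and 69.8 ± 6.45 in LS174T. With the length of the longest transcript in place of all exonic bases, COL17A1 held 83.0% in LS513 in 2D and 54.3% in HT29 in 2D, and COL6A2 rather than COL6A1 was first in HCT116 in 3D.

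**Figure D2:**
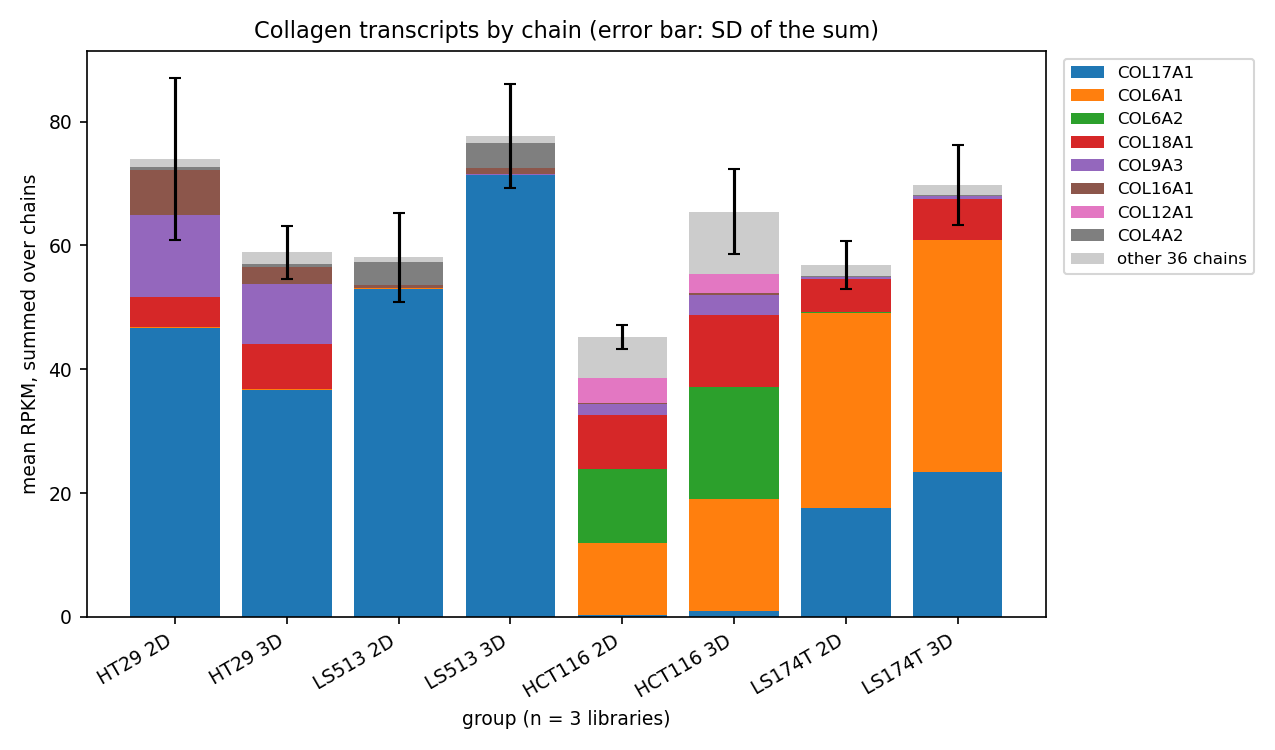
Mean RPKM of collagen chains stacked by chain for each of the 8 groups (n = 3 libraries; error bar, SD of the sum), with the 36 chains not named in the legend in grey. COL17A1 fills 91.04% of the LS513 2D bar, COL6A1 leads LS174T with 55.7% in 2D, and the HCT116 bars are split over COL6A1, COL6A2, COL18A1 and others.

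Only 23 of the 44 chains passed the filter on low counts and were tested. The chains that did not pass reached at most 0.425 CPM in any library. A chain that is high in 1 line passes through that line, so the level between lines had to differ for many of them, and 95.7% of all genes tested differed between lines at an adjusted p under 0.05. All 23 chains did so, which reads as no more than the background. Between pairs of lines, 14 of the 23 differed for HT29 and LS513 beside 69.3% of all genes, 22 for HT29 and HCT116 beside 75.7%, 15 for HT29 and LS174T beside 73.5%, 23 for LS513 and HCT116 beside 76.2%, 11 for LS513 and LS174T beside 68.9%, and 22 for HCT116 and LS174T beside 76.0%. The background of the growth comparison was lower. Of all 19387 genes tested, 21.1% rose and 19.6% fell in 3D in HT29, 13.7% and 9.90% in LS513, 16.8% and 12.3% in HCT116, and 13.1% and 9.15% in LS174T.

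Against these shares, 4 of the 23 tested chains were higher and 2 lower in 3D in HT29, 3 were higher and 1 lower in LS513, 7 were higher and 0 lower in HCT116, and 2 were higher and 1 lower in LS174T (edgeR quasi-likelihood test, adjusted p under 0.05). The count of 0 lower chains in HCT116 was also 0 with DESeq2 and at an unadjusted p under 0.05. The median log2 fold change of the 23 chains was 0.60 in HCT116, 0.27 in LS174T, 0.14 in LS513 and 0 in HT29, beside medians over all genes tested of 0.01, 0.02, 0.00 and 0.00. Many of the 23 chains were absent or near the floor outside HCT116. In HT29, COL4A3, COL4A5, COL4A6 and COL6A2 had 0 counts in both conditions, which sets their log2 fold change to 0. The medians and the counts out of 23 thus do not rest on the same expressed chains in each line. The libraries of 2D and 3D did not overlap for 9 of the 23 chains in HT29, for 6 in LS513, for 10 in HCT116 and for 9 in LS174T, where the share of all genes tested without overlap was 52.9%, 42.9%, 40.4% and 38.5%. No chain was called in the same direction in all 4 lines. Of the tested chains, 13 were called in at least 1 line and 10 in none. No share of all genes tested is given for calls in any line or in all 4 lines, so these counts have no background. The growth effect itself differed between lines for 8 of the 23, beside 17.1% of all genes tested. These were COL16A1, COL9A3, COL17A1, COL4A2, COL5A3, COL13A1, COL6A1 and COL9A2.

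**Figure D3:**
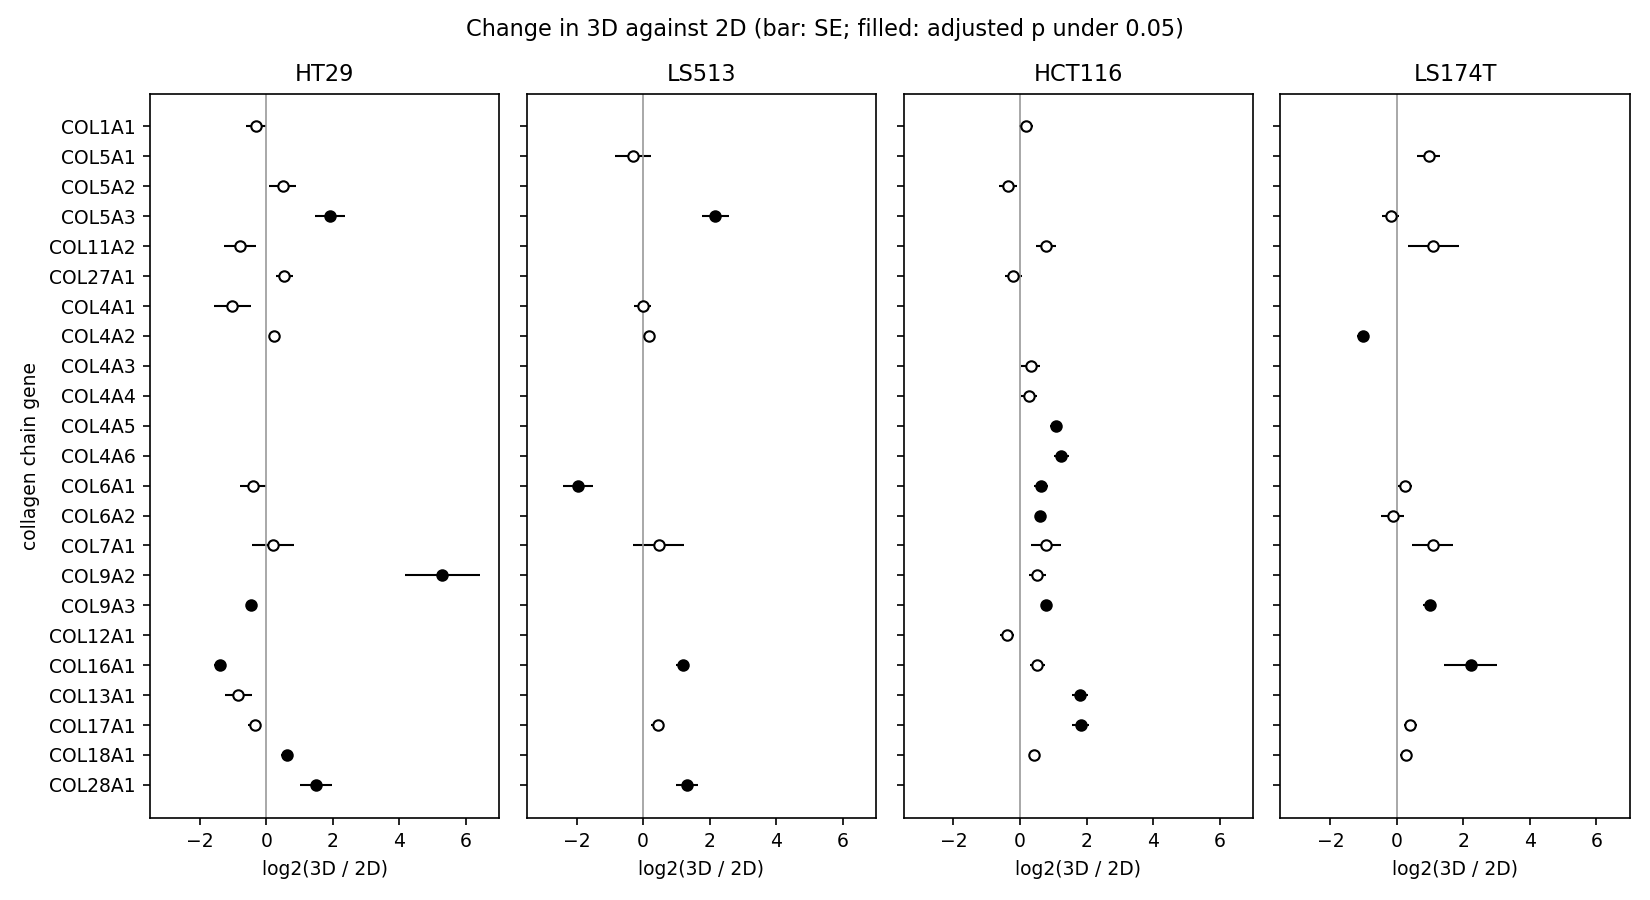
Log2 fold change of 3D against 2D with its SE for the chains that reached a mean of 1 CPM in some group, drawn in each line where the chain was detected in at least 1 of its 2 conditions or was called. Filled points passed an adjusted p of 0.05. COL16A1 lies at -1.40 in HT29 and at 1.18 in LS513, and the 7 filled points of HCT116 are all to the right of 0.

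The hemidesmosomal chain COL17A1 (chromosome 10, 104031286 to 104085957, minus strand, GRCh38) was the most abundant collagen transcript in HT29 and LS513. In LS513 it stood at 425, 370 and 326 CPM in 2D and at 556, 514 and 443 CPM in 3D. In HT29 the 2D libraries held 326, 425 and 238 CPM and the 3D libraries 274, 228 and 276 CPM. In LS174T the values were 149, 98.3 and 125 CPM in 2D and 165, 177 and 153 CPM in 3D. All libraries of LS513 and of LS174T were thus higher in 3D than in 2D, without overlap, whereas the HT29 conditions overlapped. None of these 3 comparisons passed the test, with log2 fold changes of -0.35 ± 0.20 (SE) in HT29, 0.43 ± 0.20 in LS513 and 0.41 ± 0.20 in LS174T and adjusted p of 0.164, 0.118 and 0.138. Without the filter on low counts these 3 comparisons passed, with adjusted p of 0.0368, 0.00252 and 0.00435, and LS513 also passed when its 6 libraries were fitted alone (adjusted p = 0.0203). HCT116 was far below the other lines, at 2.08, 1.29 and 2.31 CPM in 2D, and rose to 8.81, 6.76 and 4.41 CPM in 3D. This increase was 3.53-fold (log2 fold change 1.82 ± 0.27, adjusted p = 2.44e-05). Its growth effect differed between lines (adjusted p = 0.000471). Averaged over both conditions, the level fell in the order LS513, HT29, LS174T and HCT116, and each neighbor in this order differed from the next (largest adjusted p = 0.000841).

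The promoter of COL17A1 was poor in CpG. The 250 bases before its RefSeq start (GRCh38.p14) held 1 CpG, and 15.4% of 27305 promoters in the RefSeq table had no more in theirs. These bases held TATAAA on the gene's strand or its complement, as did 11.1% of all promoters, with its first base at -206 from the start. They held no GGGCGG, which 42.3% of all promoters held.

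Among the other membrane collagens, COL13A1, a chain found at cell adhesion sites, was the only further chain detected. In HCT116 it stood at 2.48, 2.62 and 2.89 CPM in 2D and at 10.04, 9.99 and 7.82 CPM in 3D. The groups did not overlap, and the increase of 3.49-fold (log2 fold change 1.803 ± 0.25, adjusted p = 3.54e-05) was close in size to that of COL17A1 in the same cells. In HT29, COL13A1 was at 0.377, 0.482 and 0.712 CPM in 2D and at 0.211, 0.207 and 0.435 CPM in 3D, which overlapped and did not pass (log2 fold change -0.84, adjusted p = 0.116), though the decrease passed without HT29 3D replicate 4 (adjusted p = 0.0482). In LS513 and LS174T it had no library above the floor. Between lines the growth effect on COL13A1 differed (adjusted p = 0.00207).

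The type IV chains of the basement membrane split the lines into 3 patterns. COL4A1 and COL4A2, which assemble with each other in nearly all basement membranes, start 126 bases apart on chromosome 13 and are read in opposite directions. LS513 was the line with both at a mean of at least 1 CPM, though COL4A1 was also detected in HT29 in 2D, at 5 to 10 counts. In LS513, COL4A2 stood at 68.8, 66.1 and 71.5 CPM in 2D and 73.2, 85.7 and 72.4 CPM in 3D, and COL4A1 at 8.28 ± 0.77 CPM in 2D and 8.18 ± 0.37 CPM in 3D (mean ± SD, n = 3). Per exonic length COL4A2 was 6.36 times as high as COL4A1 in 2D and 7.18 times in 3D, or 8.49 and 9.58 times with the longest transcript. The log2 ratio of COL4A1 to COL4A2 changed by -0.17 from 2D to 3D (exact two-sided permutation test, p = 0.3, with 0.1 the smallest p that 3 against 3 allows).

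HT29 and LS174T held COL4A2 nearly without COL4A1. In LS174T, COL4A2 fell from 4.36, 3.92 and 5.80 CPM in 2D to 2.05, 2.73 and 2.24 CPM in 3D, while COL4A1 had at most 0.0299 CPM in a library. The conditions did not overlap, and the decrease was 2.01-fold (log2 fold change -1.01 ± 0.18, adjusted p = 0.000341). In HT29, COL4A2 was 8.09, 9.11 and 9.47 CPM in 2D and 10.3, 10.7 and 10.1 CPM in 3D beside at most 0.343 CPM of COL4A1. These conditions did not overlap either, but the log2 fold change of 0.22 ± 0.16 did not pass (adjusted p = 0.266). The growth effect on COL4A2 differed between lines (adjusted p = 0.00108). Its level fell in the order LS513, HT29, LS174T and HCT116, with each neighbor differing from the next (largest adjusted p = 3.19e-11).

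HCT116 showed the reverse, with at most 0.327 CPM of COL4A1 and 0.166 CPM of COL4A2 and with the other 4 type IV chains. At these few counts COL4A2 was called higher in 3D in HCT116 without its 2D replicate 3 (adjusted p = 0.0474) and not otherwise among the libraries left out (adjusted p = 0.270 with all libraries). COL4A3, COL4A4 and COL4A5 assemble in the basement membranes of kidney, lung and inner ear, and COL4A5 also assembles with COL4A6. COL4A5 stood at 10.7, 12.7 and 10.7 CPM in 2D and at 22.7, 27.4 and 21.8 CPM in 3D. COL4A6 stood at 2.26, 2.07 and 1.796 CPM in 2D and at 5.02, 4.87 and 4.58 CPM in 3D. Neither gene overlapped between conditions. Both rose, COL4A5 2.11-fold (log2 fold change 1.08 ± 0.17, adjusted p = 0.000493) and COL4A6 2.36-fold (1.24 ± 0.23, adjusted p = 0.00204). In the 3 other lines COL4A6 had 0 counts in 18 libraries and COL4A5 had counts in 1 LS174T library only, at 0.0296 CPM. The log2 ratio of COL4A5 to COL4A6 was 2.12 ± 0.21 in 2D and 1.95 ± 0.16 in 3D, and the exact two-sided permutation test (p = 0.3) could not have gone below 0.1 with 3 against 3. COL4A3 at 2.58 ± 0.81 CPM and COL4A4 at 7.15 ± 1.69 CPM in 2D did not pass the test, with log2 fold changes of 0.32 (adjusted p = 0.472) and 0.27 (adjusted p = 0.461).

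Each of these 3 type IV pairs lies head to head in the genome, with 126 bases between the RefSeq starts of COL4A1 and COL4A2, 418 between those of COL4A3 and COL4A4, and 379 between those of COL4A5 and COL4A6. Since COL4A5 and COL4A6 both rose in HCT116 and were at or near 0 elsewhere, the part of their shared interval next to the start of COL4A5 is given below (250 bases before the start, chrX:108439588-108439837, GRCh38.p14, plus strand, from RefSeq). It held 8 CpG, shown in lower case as the rest, and neither GGGCGG nor TATAAA on either strand.
COL4A5: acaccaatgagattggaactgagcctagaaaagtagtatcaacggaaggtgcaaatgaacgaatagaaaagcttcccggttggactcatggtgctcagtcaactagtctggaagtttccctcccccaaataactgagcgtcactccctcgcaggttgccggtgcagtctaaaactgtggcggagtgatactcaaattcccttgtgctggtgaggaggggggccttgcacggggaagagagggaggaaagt

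**Figure D4:**
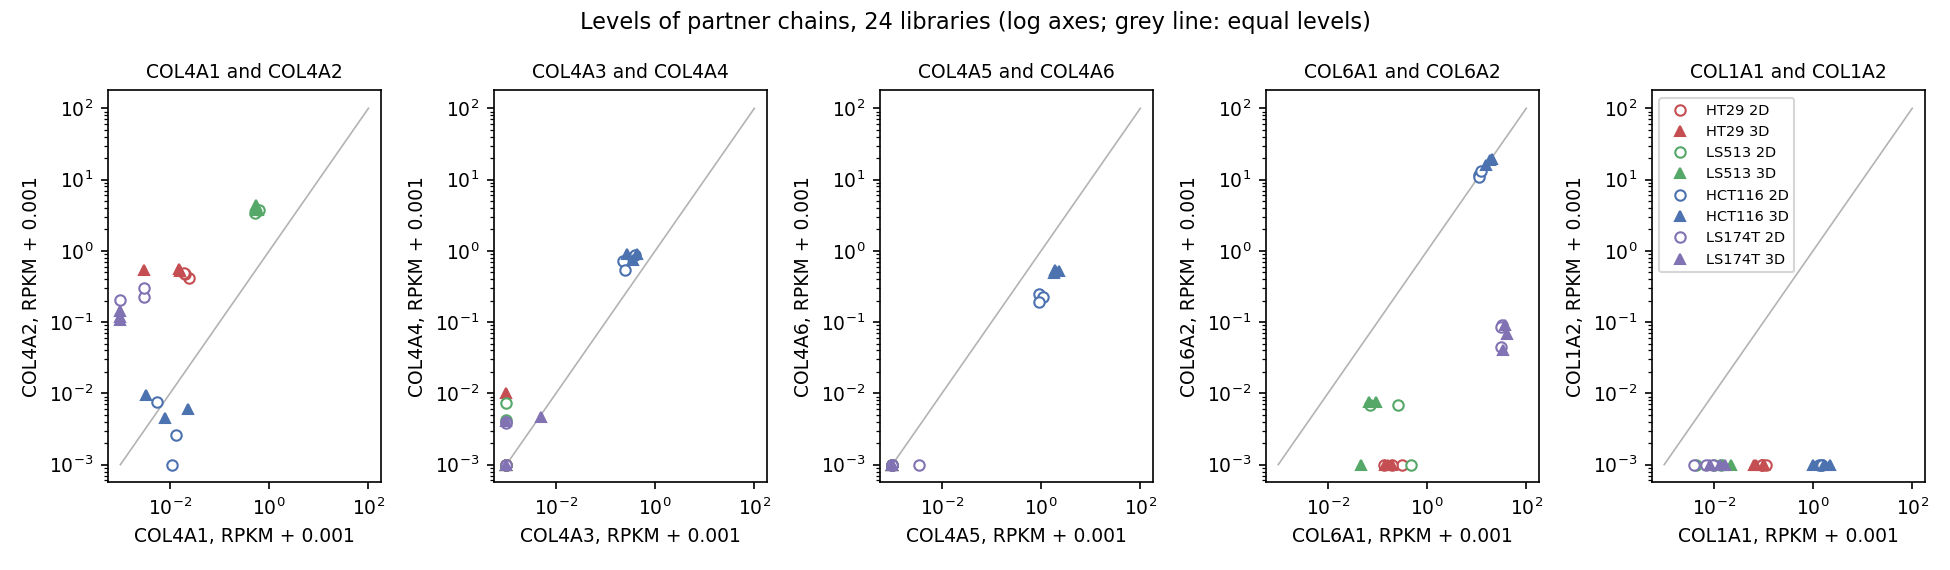
RPKM of partner chains against each other on log axes, 1 point per library (0.001 added so that libraries at 0 can be drawn; open circles 2D, filled triangles 3D; grey line, equal levels). HCT116 lies on the line for COL6A1 and COL6A2 with all exonic bases as length, where LS174T lies far below it, and COL1A2 is at 0 in all 24 libraries.

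Type VI collagen assembles from COL6A1, COL6A2 and a further chain, most often COL6A3. HCT116 held both COL6A1 and COL6A2. COL6A1 was 60.6, 59.9 and 66.6 CPM in 2D and 109, 99.3 and 81.5 CPM in 3D, and COL6A2 was 64.1 ± 6.5 CPM in 2D and 97.2 ± 10.05 CPM in 3D. Both were higher in 3D without overlap, COL6A2 by 1.52-fold (log2 fold change 0.60 ± 0.15, adjusted p = 0.00440) and COL6A1 by 1.55-fold (0.63 ± 0.21, adjusted p = 0.0293). The COL6A1 call was lost with DESeq2 (adjusted p = 0.0673) and on leaving out any 1 of HCT116 2D replicates 1, 2 and 3 or 3D replicates 1 and 2 (largest adjusted p = 0.130). Their log2 ratio per exonic length was -0.03 ± 0.07 in 2D and 0.00 ± 0.08 in 3D (exact two-sided permutation test, p = 0.6, where 0.1 is the smallest possible). With the length of the longest transcript, COL6A2 was 1.26 times COL6A1 in 2D and 1.24 times in 3D.

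LS174T had more COL6A1 than HCT116, at 174, 168 and 164 CPM in 2D and 201, 218 and 183 CPM in 3D, nearly without its partner. COL6A2 reached at most 0.490 CPM in a LS174T library, and per exonic length it was 0.00219 times COL6A1 in 2D and 0.00167 times in 3D. The LS174T conditions did not overlap for COL6A1, but its log2 fold change of 0.25 ± 0.21 did not pass (adjusted p = 0.420). In LS513, where the gene is rare, COL6A1 fell from 1.38, 2.48 and 0.380 CPM in 2D to 0.493, 0.355 and 0.242 CPM in 3D (log2 fold change -1.96 ± 0.46, adjusted p = 0.00283), although 1 library of 2D lay among those of 3D. Without LS513 2D replicate 2, the highest, the log2 fold change was -1.26 (adjusted p = 0.0498). HT29 was at 1.65, 1.03 and 0.712 CPM in 2D and 1.03, 0.760 and 0.870 CPM in 3D, which overlapped. COL6A1 also differed between lines in its growth effect (adjusted p = 0.00394). The level fell in the order LS174T, HCT116, HT29 and LS513, and the last 2 did not differ beyond their spread (adjusted p = 0.159).

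Fibril-associated chains decorate the surface of other collagens. Of the 10 such chains 4 were tested, and COL16A1 and COL9A3 were called in opposite directions in different lines. COL16A1, found in many connective tissues and near basement membranes, stood in HT29 at 68.7, 75.9 and 60.4 CPM in 2D and at 25.8, 27.5 and 24.7 CPM in 3D. In LS513 it stood at 5.28, 4.47 and 3.52 CPM in 2D and at 8.94, 13.8 and 7.41 CPM in 3D. The conditions did not overlap in either line. COL16A1 fell 2.63-fold in HT29 (log2 fold change -1.40 ± 0.18, adjusted p = 2.61e-06) and rose 2.27-fold in LS513 (1.18 ± 0.19, adjusted p = 9.83e-05). HCT116 was at 1.54, 1.41 and 1.96 CPM in 2D and 2.49, 2.61 and 1.90 CPM in 3D, which overlapped and did not pass (log2 fold change 0.52 ± 0.23, adjusted p = 0.0958). The smallest adjusted p for a growth effect that differed between lines, among the 23 chains tested, was that of COL16A1 (1.04e-06).

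LS174T held COL16A1 near the floor, with 0.0598, 0.0284 and 0 CPM in 2D and 0.153, 0.182 and 0.123 CPM in 3D. That is 3 counts in all of 2D and 14 in all of 3D, a ratio of 5.16 with an exact 95% counting interval of 1.44 to 28.0. The increase passed narrowly (log2 fold change 2.22 ± 0.79, adjusted p = 0.0465). The call was lost on leaving out any 1 of 14 libraries, namely HT29 2D replicates 1 and 3, HT29 3D replicates 1, 3 and 4, LS513 2D replicate 2, HCT116 2D replicates 1 and 2, HCT116 3D replicates 1 and 2, LS174T 2D replicates 2 and 3, and LS174T 3D replicates 1 and 2 (largest adjusted p = 0.161), which leaves COL9A3 as the 1 chain called higher in LS174T in all of these but that without LS513 2D replicate 2.

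COL9A3, a chain of the cartilage collagen type IX that assembles with COL9A1 and COL9A2, was among the leading chains of HT29, at 68.8, 63.2 and 59.7 CPM in 2D and 46.2, 45.4 and 48.4 CPM in 3D. In HCT116 it rose from 8.76, 7.67 and 11.1 CPM to 18.3, 14.5 and 14.2 CPM, and in LS174T from 0.807, 1.42 and 1.21 CPM to 2.27, 2.55 and 2.03 CPM. No overlap was seen in these 3 lines. The increase was 1.71-fold in HCT116 (log2 fold change 0.78 ± 0.15, adjusted p = 0.000622) and 1.97-fold in LS174T (0.98 ± 0.21, adjusted p = 0.00180). In HT29 it fell 1.37-fold (-0.45 ± 0.15, adjusted p = 0.0163), a call that was lost without HT29 2D replicate 1 or 2 or 3D replicate 1 or 3 (largest adjusted p = 0.114) and with technical replicates a to d only (adjusted p = 0.0526), so that COL16A1 was then the 1 chain called lower in HT29. For COL9A3 the growth effect differed between lines (adjusted p = 0.000202). The level fell in the order HT29, HCT116, LS174T and LS513, with each neighbor differing from the next (largest adjusted p = 3.97e-13).

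The partners of COL9A3 were scarce. COL9A1 had at most 5 counts in a library. COL9A2 was detected in HCT116 alone, at 2.35, 2.73 and 2.85 CPM in 2D and 3.52, 3.43 and 4.48 CPM in 3D, without overlap but short of the threshold (log2 fold change 0.52 ± 0.25, adjusted p = 0.127). In HT29, COL9A2 passed the test on very few reads, 0 counts in each 2D library against 6, 6 and 2 counts in 3D (adjusted p = 0.000879). Set against 3 counts over the whole 2D group, the 14 counts in 3D (0.154 ± 0.071 CPM) were 3.98-fold higher. This figure leaves out the counting error of 3D, so it is no lower bound. The test between lines also passed for COL9A2 (adjusted p = 0.0230). COL12A1, which binds to type I fibrils, was an HCT116 chain at 49.2 ± 15.2 CPM in 2D and 37.6 ± 8.4 CPM in 3D. Its log2 fold change of -0.39 ± 0.21 did not pass (adjusted p = 0.184), but it passed without HCT116 2D replicate 3 (adjusted p = 0.0283), the 1 setting in which a chain was called lower in HCT116.

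COL18A1, a basement membrane collagen whose tail is released as endostatin, was held by HT29, HCT116 and LS174T. HT29 rose from 35.0, 34.7 and 52.2 CPM in 2D to 67.0, 59.4 and 59.9 CPM in 3D. HCT116 was at 66.3, 71.3 and 84.5 CPM in 2D and 100.7, 106 and 93.0 CPM in 3D. LS174T was at 43.9, 46.8 and 47.7 CPM in 2D and 44.7, 70.3 and 51.7 CPM in 3D, and LS513 had at most 0.352 CPM. Only LS174T overlapped between conditions among the 3 lines that held the chain. The increase passed in HT29, by 1.53-fold (log2 fold change 0.62 ± 0.17, adjusted p = 0.00523), and lay at the threshold in HCT116 (0.43 ± 0.16, adjusted p = 0.0503). The HCT116 difference passed with the size factors of DESeq2 (adjusted p = 0.0481), with DESeq2 (adjusted p = 0.0383), with technical replicates a to d only (adjusted p = 0.0251), without the filter on low counts (adjusted p = 0.0129) and with only the 6 libraries of that line (adjusted p = 0.0148). It also passed without HCT116 2D replicate 3, HT29 2D replicate 3, LS513 3D replicate 1 or 3, or any 1 of the 3 LS174T 3D libraries (adjusted p = 0.0181 to 0.0471). The growth effect was not shown to differ between lines (adjusted p = 0.716). HCT116 stood above HT29 (adjusted p = 2.17e-06), and HT29 and LS174T did not differ beyond their spread (adjusted p = 0.946). Of the exonic bases of COL18A1, 16.4% lie opposite to SLC19A1, and the strand setting of the counting is not given in the sources used here, so reads from the shared bases cannot be assigned with certainty.

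**Figure D5:**
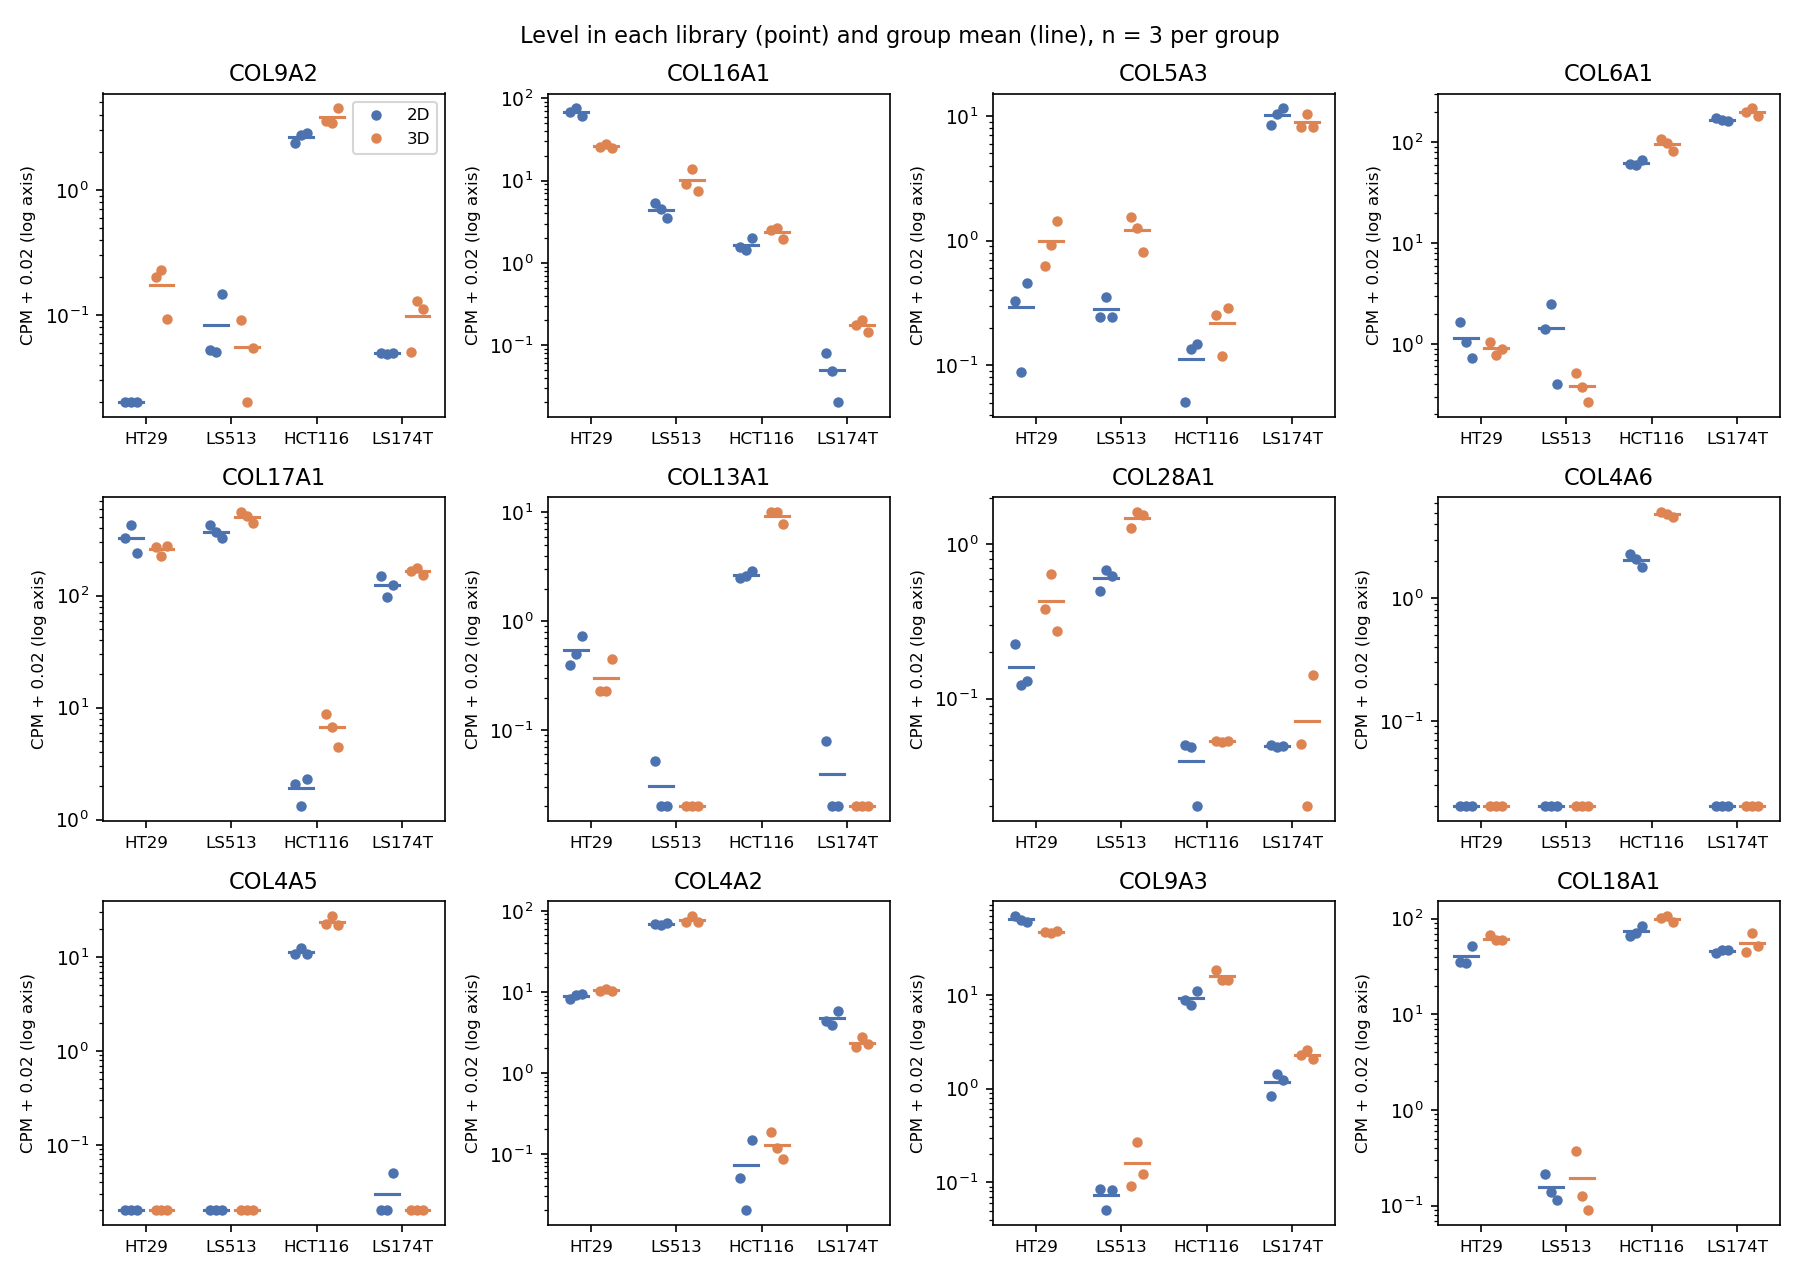
CPM + 0.02 on a log axis for the 12 chains with the largest called changes, in each library (points; blue 2D, orange 3D) and as group mean (line), n = 3 per group. COL4A5 and COL4A6 stand above the floor in HCT116 only, and COL16A1 falls in HT29 where it rises in LS513.

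Of the 11 fibrillar chains, 6 were tested, and of COL1A1 and COL1A2, the pair that makes up most of the collagen of stroma, only the first was detected. COL1A1 was detected in HCT116, at 14.1 ± 0.95 CPM in 2D and 16.0 ± 5.95 CPM in 3D, and at about 1 CPM or less in HT29, while COL1A2 had 0 counts everywhere, and COL3A1 had at most 2 counts in a library. COL1A1 did not pass the test in HCT116 (log2 fold change 0.19, adjusted p = 0.531). COL5A3, a chain of type V collagen that assembles with COL5A1 and COL5A2, was highest in LS174T, at 8.46, 10.4 and 11.5 CPM in 2D and 8.12, 10.4 and 8.17 CPM in 3D, which overlapped (adjusted p = 0.630). At lower levels it rose in HT29 from 0.309, 0.0688 and 0.438 CPM to 0.603, 0.899 and 1.41 CPM and in LS513 from 0.225, 0.332 and 0.222 CPM to 1.51, 1.24 and 0.797 CPM. Neither line overlapped, and the increases were 3.77-fold (log2 fold change 1.91 ± 0.44, adjusted p = 0.00141) and 4.48-fold (2.16 ± 0.40, adjusted p = 0.000398). The growth effect on COL5A3 differed between lines (adjusted p = 0.00203). Its HT29 call was lost when replicate number was fitted as a block (adjusted p = 0.091). In that fit only HT29 replicates 1 and 3 compare the conditions. In HCT116 the chain was near the floor at 0.0302, 0.115 and 0.128 CPM in 2D and 0.233, 0.0980 and 0.267 CPM in 3D.

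The other fibrillar chains did not pass in any line. COL5A1 was at 1.36 ± 0.33 CPM in 2D and 2.63 ± 0.50 CPM in 3D in LS174T (log2 fold change 0.95, adjusted p = 0.0613), and it passed without LS513 2D replicate 2 (adjusted p = 0.0327), with the 6 LS174T libraries alone (adjusted p = 0.0456) and without the filter on low counts (adjusted p = 0.0262). COL5A2 was at 3.95 ± 1.34 and 3.07 ± 0.31 CPM in HCT116. COL27A1, a chain of cartilage, was shared by HT29, at 11.6 ± 3.3 and 16.7 ± 1.4 CPM, and HCT116, at 10.1 ± 1.7 and 8.74 ± 3.68 CPM. In HT29 it did not pass (log2 fold change 0.54, adjusted p = 0.0957), but it did without HT29 2D replicate 3 (adjusted p = 0.0493) or HCT116 3D replicate 3 (adjusted p = 0.0289), with the 6 HT29 libraries alone (adjusted p = 0.0344) and without the filter on low counts (adjusted p = 0.00799). COL11A2 and COL7A1 were uneven in HCT116 in 3D, where replicates 1, 2 and 3 held 8.27, 3.69 and 2.37 CPM of COL11A2 and 6.78, 2.84 and 0.768 CPM of COL7A1. Without replicate 3 of 3D both passed, COL11A2 with an adjusted p of 0.00525 and COL7A1 with 0.0145, against 0.0563 and 0.212 with all libraries. COL11A2 also passed without the filter on low counts (adjusted p = 0.0397).

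COL28A1, a chain with von Willebrand A domains known mainly from the peripheral nervous system, was low and was called higher in 3D in LS513 and HT29. LS174T held at most 4 counts of it in a library and HCT116 at most 1. In LS513 it stood at 0.482, 0.664 and 0.602 CPM in 2D and at 1.27, 1.60 and 1.52 CPM in 3D. In HT29 it stood at 0.206, 0.103 and 0.109 CPM in 2D and at 0.362, 0.622 and 0.254 CPM in 3D. Neither line overlapped. The increase was 2.50-fold in LS513 (log2 fold change 1.32 ± 0.33, adjusted p = 0.00488) and 2.83-fold in HT29 (1.502 ± 0.48, adjusted p = 0.0145). The HT29 call was lost without 2D replicate 2 or 3D replicate 3 (largest adjusted p = 0.0897), and with technical replicates e to h only it was lost in HT29 (adjusted p = 0.781) and LS513 (adjusted p = 0.0630). The growth effect was not shown to differ between lines (adjusted p = 0.968).

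Among genes that make and handle collagen, 3 enzymes of hydroxylation rose in all 4 lines. Of 19 genes of collagen synthesis, folding and secretion, all tested, 4 rose and 5 fell in HT29, 6 rose and 1 fell in LS513, 7 rose and 2 fell in HCT116, and 6 rose and 0 fell in LS174T. For this list and those that follow, the background is the share of all genes tested. It was 21.1% higher and 19.6% lower in HT29 and 13.7% and 9.90% in LS513. In HCT116 it was 16.8% and 12.3%, and in LS174T 13.1% and 9.15%. No such share is given for genes that rose in all 4 lines, for this list or those that follow. The 3 enzymes that rose in all 4 lines were P4HA1, P4HA2 and PLOD2. P4HA1, a catalytic subunit of prolyl hydroxylase, rose by a log2 fold change of 2.15 ± 0.14 in HCT116, 1.63 ± 0.13 in LS513, 1.53 ± 0.13 in LS174T and 1.13 ± 0.13 in HT29 (largest adjusted p = 7.80e-07). P4HA2, its paralog, rose by 0.66 ± 0.15, 1.00 ± 0.15, 1.37 ± 0.15 and 1.83 ± 0.16 in these lines (largest adjusted p = 0.00257), and PLOD2, a lysyl hydroxylase, by 1.56, 1.64, 3.59 and 1.04 (largest adjusted p = 0.00185). The PLOD2 increase in LS174T, from 0.0289 to 0.392 CPM, was lost with technical replicates e to h only (adjusted p = 0.0904). The most abundant members were P4HB, which forms the other subunit of prolyl hydroxylase, and PPIB, a proline isomerase. P4HB rose in LS513 and LS174T and PPIB in LS513 and HCT116.

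Of 15 tested genes of collagen processing and cross-linking, 1 rose and 4 fell in HT29, 3 and 3 in LS513, 6 and 0 in HCT116, and 2 and 1 in LS174T. TGM2, a transglutaminase, fell in HT29 from 624 to 360 CPM (adjusted p = 0.000779) and rose in HCT116 from 14.6 to 47.8 CPM (adjusted p = 3.25e-07). FURIN, a protease that matures procollagens and many other proteins, rose in HCT116 from 74.1 to 98.7 CPM (adjusted p = 0.00199). LOXL2, a lysyl oxidase that cross-links type IV collagen and was singled out after its values were seen, went up in HCT116 from 18.5 CPM in 2D to 133 CPM in 3D (log2 fold change 2.85, adjusted p = 5.07e-11) and was at or below 0.498 CPM on average in every group of the other lines.

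Of 10 tested collagen receptors, 3 rose and 3 fell in HT29, 2 and 3 in LS513, 4 and 1 in HCT116, and 2 and 2 in LS174T. DDR1, a receptor tyrosine kinase activated by collagen, rose in all 4 lines, by a log2 fold change of 1.32 in HCT116, 0.52 in LS513, 0.47 in HT29 and 0.30 in LS174T (largest adjusted p = 0.0370). The LS174T call was lost in 8 of 32 alternatives, among them leaving out LS174T 2D replicate 2 or 3 or 3D replicate 1 or 2 (largest adjusted p = 0.121). CD44, chiefly a hyaluronan receptor, rose in HT29 and LS174T and fell in LS513.

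Of the partners of the collagens in the basement membrane and the hemidesmosome, some fell in HT29 and some rose in HCT116. LAMA3, LAMB1, LAMC1, HSPG2 and AGRN of the basement membrane list did both. Whether the lists differ between lines was not tested. Of 15 basement membrane genes, 0 rose and 6 fell in HT29, 3 rose and 1 fell in LS513, 9 rose and 0 fell in HCT116, and 1 rose and 2 fell in LS174T. AGRN, the proteoglycan agrin, fell in HT29 from 1081 to 804 CPM (adjusted p = 0.0288) and rose in HCT116 from 79.6 to 146 CPM (adjusted p = 0.000196), and LAMA5, a laminin chain, passed in none. Of 11 tested hemidesmosome genes, 0 rose and 7 fell in HT29, 3 rose and 0 fell in LS513, 5 rose and 0 fell in HCT116, and 0 rose and 1 fell in LS174T. ITGA6, the integrin subunit of the hemidesmosome, fell in HT29 from 533 to 289 CPM (adjusted p = 0.000192), as did PLEC, its cytoskeletal linker, from 1130.1 to 597 CPM (adjusted p = 4.92e-05). Neither passed in the other 3 lines. Of 12 tested proteases and inhibitors, 2 rose and 2 fell in HT29, 5 and 1 in LS513, 7 and 0 in HCT116, and 0 and 1 in LS174T. TIMP1, an inhibitor of matrix metalloproteinases, rose in HCT116 (102 CPM in 2D and 173 CPM in 3D, adjusted p = 0.000483) and in LS513 (133 and 221 CPM, adjusted p = 0.000810), and CTSB, a cathepsin, rose in HCT116 (adjusted p = 0.000222). Each count of 0 in these lists was also 0 with DESeq2 and at an unadjusted p under 0.05, except that 2 hemidesmosome genes were then higher in LS174T at an unadjusted p under 0.05.

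Markers of other cell types were read beside these results. Of 10 epithelial markers, KRT19, KRT20 and CLDN7 rose in 3D in all 4 lines. Among the 6 hematopoietic markers CD68, a lysosomal protein also made by epithelial cells, rose in all 4 lines, while PTPRC had at most 2 counts in any library. LYZ, lysozyme, which epithelial cells of the gut also make, averaged 1373 CPM in HT29 in 2D and 2549 CPM in 3D and at most 4.09 CPM in the groups of the other lines. The 6 smooth muscle and pericyte markers summed to 67.8 to 69.7 CPM in HCT116 in 2D and 83.6 to 92.9 CPM in 3D, mainly MCAM, and to at most 12.6 CPM in a library of the other lines. The 6 endothelial markers summed to 15.5 to 24.5 CPM in HT29, mainly ENG, and to at most 2.09 CPM elsewhere. Their part in the collagen differences between lines and growth conditions was not tested.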

How the data were processed

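The authors deposited raw gene counts per technical replicate, made from stranded polyA libraries read as single 75-base reads, with Trim Galore 0.4.1, STAR and HTSeq 0.5.3 per the submitters' processing notes. Multi-mapped reads were removed before counting. The notes name hg19 and the methods an Ensembl 91 annotation, which is GRCh38, and 57979 of the 58243 identifiers are in GENCODE 29, from which symbols, positions and lengths were taken. The 8 technical replicates of a library were summed (7 for HT29 3D replicate 4, whose replicate d was not analysed here), and they differed by no more than counting noise (median chi-square per degree of freedom of 0.928 in HT29 2D replicate 3, the shallowest library). Library totals were 18723942 to 34277421. CPM are scaled by TMM and RPKM use all exonic bases.

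Counts were fitted in R 4.3.3 with edgeR 4.0.16 (filterByExpr, TMM, robust quasi-likelihood fit, 24 libraries, 8 group coefficients, Benjamini-Hochberg over 19387 genes). Fold changes are fitted values. The test was tried on simulated counts first. Groups and replicate numbers come from the labels. Group means are given for chains with at least 1 CPM in a group, and values in every library for at most 12 of them that were called in a line, by size of change. In each pathway list, the 2 most abundant genes and those called the same way in all lines are named. The members and lists were chosen with earlier results of these data known. Alternatives were DESeq2 1.42.0, its size factors, no filter, a replicate block, sums of some technical replicates (a to d, e to h, or without d), single-line fits, other thresholds and leaving out each library. The length alternative was chosen after seeing the data. Exact permutation tests used scipy 1.17.1. Intervals and floors cover counting error only.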

Additional observations from a re-analysis of the deposited data

Results flagged for a closer look

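The growth effect differed between lines, by an interaction test in the fit of all libraries, for 8 collagen chains. The adjusted p was 1.04e-06 for COL16A1, which fell in HT29 and rose in LS513, and 0.000202 for COL9A3, which fell in HT29 and rose in HCT116 and LS174T. It was 0.000471 for COL17A1 and 0.00207 for COL13A1, which both rose in HCT116. It was 0.00108 for COL4A2, which fell in LS174T, and 0.00203 for COL5A3, which rose in HT29 and LS513. It was 0.00394 for COL6A1, which fell in LS513 and rose in HCT116, and 0.0230 for COL9A2, which rests on 14 counts in HT29.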

How the results depend on the processing

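The counts of chains called in 3D against 2D were recomputed under each alternative, and those that moved by over 1.5 times are given here; where nothing else is said, the cause was not tested. With all libraries, HT29 had 4 chains higher and 2 lower, HCT116 7 higher, and LS174T 2 higher. The count higher in LS174T was 5 without the filter on low counts, 4 at an unadjusted p under 0.05, and 1 with technical replicates a to d only, with e to h only and with a log2 fold change of at least 1 in size. That last rule leaves 1 lower in HT29 and 4 higher in HCT116, and technical replicates a to d leave 1 lower in HT29. Leaving out 1 library gave 1 to 3 lower in HT29, 0 to 1 lower in HCT116 and 1 to 2 higher in LS174T. A detection rule of a mean of at least 1 CPM gave 7 chains in HT29 2D, 6 in HT29 3D, 5 in LS513 2D and 7 in LS174T 3D, against 13, 14, 8 and 11.

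Replicate numbers gave no sign of pairing: the correlations of same-numbered deviations ran from -0.126 to 0.0773. Those of different-numbered deviations ran from -0.203 to 0.198. With 3 libraries a group these values cannot exclude pairing. A replicate block gave 2 chains higher and 1 lower in HT29 and 1 higher in LS174T. Only replicates 1 and 3 of HT29 have libraries in both conditions, so its blocked comparison rests on those replicates alone. HT29 2D replicate 2 and 3D replicate 4 add nothing to it. The HT29 calls lost were those of COL5A3 (adjusted p = 0.091), COL28A1 (0.079) and COL9A3 (0.072). In LS174T the call of COL16A1 was lost (adjusted p = 0.066).

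Among chains with a mean of at least 1 CPM in a group of the line or called in that line, leaving out 1 library changed the sign of 5 differences, none of them called. The log2 fold change ran from -0.11 to 0.42 for COL1A1 in HCT116 and from -0.18 to 1.22 for COL7A1 in HCT116 (negative without 3D replicate 1), from -0.53 to 0.0631 for COL27A1 in HCT116 (positive without 3D replicate 3), from -0.56 to 0.0323 for COL6A1 in HT29 (positive without 2D replicate 1) and from -0.0724 to 0.0601 for COL4A1 in LS513 (positive without 2D replicate 3 and, at 0.0027, without 3D replicate 2). Signs changed for chains at lower levels too, such as COL5A1 in LS513 (-0.31 with all libraries and 0.39 without 2D replicate 1). The depth allows no statement on chains at or under 3 counts in a library.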
